A study of Mus musculus with 2 samples.

Results

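RUNX2 CUT&Tag peaks were examined at 8 genes that mark osteocytes, the cells embedded in bone matrix, and that lie outside the SIBLING matrix gene cluster: Sost, Phex, Fgf23, Pdpn, Reln, Irx5, Mef2c and Cd44. These 8 of 21887 protein-coding genes were chosen by name, and the peaks assigned to each were those overlapping its RefSeq span or the 100 kb beyond either end. The cells were MC3T3-E1, a mouse line of osteoblast precursors, kept untreated, and there is 1 group with 2 replicate libraries and neither a control library nor a second condition. In CUT&Tag an antibody, here against RUNX2, directs the transposase Tn5 to chromatin, and the inserted adapters mark the bound DNA. The lists held 26853 peaks in replicate 1 and 27287 in replicate 2, each with a position and a width and no height, so depth is unknown and the precursor label could not be checked against marker expression. Whether separate cultures were used for the replicates is not stated in the labels, and differences between them may be technical.

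RUNX2 is the Runt-family transcription factor that drives osteoblast formation, and osteocytes arise from osteoblasts that become buried in the matrix they make. Osteocytes signal to bone-forming cells through the Wnt antagonist sclerostin and to the kidney through the phosphate-lowering hormone FGF23, and they extend dendrites that carry podoplanin. A precursor line stands early in this course, and the peaks give the places where RUNX2 signal was called there, not the expression of the genes.

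Each of the 8 genes had at least 1 region called in both replicates in its window, which was the case for 77.7% of all protein-coding genes. A shared region is a group of peaks of both lists that overlap by at least 1 bp. It runs from the lowest start to the highest end of these peaks, so parts of it may be called in 1 replicate alone. The 8 windows held 25 shared regions, of which 10 overlapped a gene of the set and 15 lay beyond its ends. Cd44 had 10 of the 25, Pdpn had 4, Irx5 had 3, Phex, Fgf23 and Reln had 2 each, and Sost and Mef2c had 1 each. With the limit set at 10 kb from either end, 6 of the 8 genes had a shared region, against 52.8% of all protein-coding genes. Inside the span it was 5 of the 8, against 41.4%. These shares were not matched for gene length, and Reln, Phex and Mef2c, among the 5, span 460252, 253212 and 163063 bp. Per 100 kb of window, the median over the 8 genes was 0.72 shared regions, below the 1.14 over all protein-coding genes. A count over 8 genes is coarse, and no excess over all genes was tested.

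A shared region covered the promoter of 1 of these genes, Cd44. RefSeq promoter windows, 250 bases before to 50 after a transcript's start, were held for 7 of the 8 genes on GRCm38.p6. The one missing was Irx5. Of the 17492 protein-coding genes with such a window, 33.0% had a shared region over it. The Cd44 window and that of Pdpn, which a peak of replicate 1 alone touched, are shown here 5′ to 3′ with the bases under the called region in capitals. The Cd44 window is at chr2:102901616-102901915 and the Pdpn window at chr4:143299515-143299814, both on the minus strand.
Cd44: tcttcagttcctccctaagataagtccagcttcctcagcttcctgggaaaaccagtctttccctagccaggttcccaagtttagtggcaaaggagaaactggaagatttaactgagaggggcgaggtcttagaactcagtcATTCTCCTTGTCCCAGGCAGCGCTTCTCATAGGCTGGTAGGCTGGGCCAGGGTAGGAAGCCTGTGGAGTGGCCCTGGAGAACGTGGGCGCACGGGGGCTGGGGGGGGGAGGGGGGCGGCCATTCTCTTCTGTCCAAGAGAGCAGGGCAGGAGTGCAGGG
Pdpn: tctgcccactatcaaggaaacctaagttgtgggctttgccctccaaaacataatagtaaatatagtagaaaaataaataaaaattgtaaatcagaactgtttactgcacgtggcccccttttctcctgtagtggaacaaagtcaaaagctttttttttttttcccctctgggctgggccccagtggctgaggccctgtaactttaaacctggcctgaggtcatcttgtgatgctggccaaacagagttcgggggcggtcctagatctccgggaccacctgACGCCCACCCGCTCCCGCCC
The shared region covered 159 of the 300 bases at Cd44, reaching across the start, and the replicate 1 peak covered the last 20 bases at Pdpn. At Cd44 the replicate 1 peak ended at 102901765 and the replicate 2 peak at 102901774.

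Shared regions also covered promoter windows of 3 neighbouring genes, Dusp3 beside Sost, Tigar beside Fgf23 and Crnde beside Irx5. These windows are shown because they are where the called regions of those windows met a transcript start. For Dusp3 (chr11:101984742-101985041, minus strand) the capitals mark the bases under the shared region, and for Crnde (chr8:92356071-92356370, minus strand) the region covered the whole window. For Tigar (chr6:127109503-127109802, minus strand) the shared region also covered the whole window, and the capitals mark the RUNX motif TGTGGT. The replicate 2 peak at Tigar covered that window, but the replicate 1 peak, from 127109549 to 127109748, covered only part of it. At Dusp3 the replicate 1 peak ended at 101984807, so the capitals above that position were under a replicate 2 peak alone.
Dusp3: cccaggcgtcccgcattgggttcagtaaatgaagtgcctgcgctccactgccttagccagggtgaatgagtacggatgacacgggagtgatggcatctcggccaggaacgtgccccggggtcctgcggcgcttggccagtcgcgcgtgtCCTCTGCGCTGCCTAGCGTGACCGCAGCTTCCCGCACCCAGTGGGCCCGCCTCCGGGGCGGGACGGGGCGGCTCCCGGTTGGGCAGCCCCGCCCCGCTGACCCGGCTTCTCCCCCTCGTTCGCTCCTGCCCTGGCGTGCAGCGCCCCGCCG
Crnde: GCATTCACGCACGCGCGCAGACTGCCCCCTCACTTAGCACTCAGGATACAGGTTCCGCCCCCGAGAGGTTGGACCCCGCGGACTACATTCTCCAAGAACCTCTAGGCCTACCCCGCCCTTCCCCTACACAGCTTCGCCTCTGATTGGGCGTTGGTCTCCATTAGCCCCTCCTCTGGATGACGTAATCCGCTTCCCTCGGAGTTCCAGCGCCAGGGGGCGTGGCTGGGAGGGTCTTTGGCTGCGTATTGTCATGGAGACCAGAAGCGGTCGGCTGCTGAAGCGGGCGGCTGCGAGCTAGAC
Tigar: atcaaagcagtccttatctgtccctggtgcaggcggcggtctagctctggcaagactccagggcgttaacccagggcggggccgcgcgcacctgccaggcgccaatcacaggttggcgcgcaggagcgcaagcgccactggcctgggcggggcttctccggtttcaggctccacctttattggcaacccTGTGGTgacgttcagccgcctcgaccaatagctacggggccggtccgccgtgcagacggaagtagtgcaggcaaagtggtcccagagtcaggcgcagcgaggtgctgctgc
TGTGGT was the only form of the RUNX motif searched, on both strands, so other forms may be present in these windows. It was in 0 of the 9 promoter windows of the 7 genes and in 15.0% of the 21238 windows of protein-coding genes. With only 9 windows, that difference was not tested. The AP-1 motif TGANTCA, which reads the same on both strands, was in 1 of the 9, the window of a Mef2c transcript at chr13:83573357-83573656, where it began 137 bases before the start, and in 7.0% of all windows. The absence of the letters says nothing about the binding of the factors outside these 300 bases, and the sequences of the other shared regions were not used here.

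**Figure D1:**
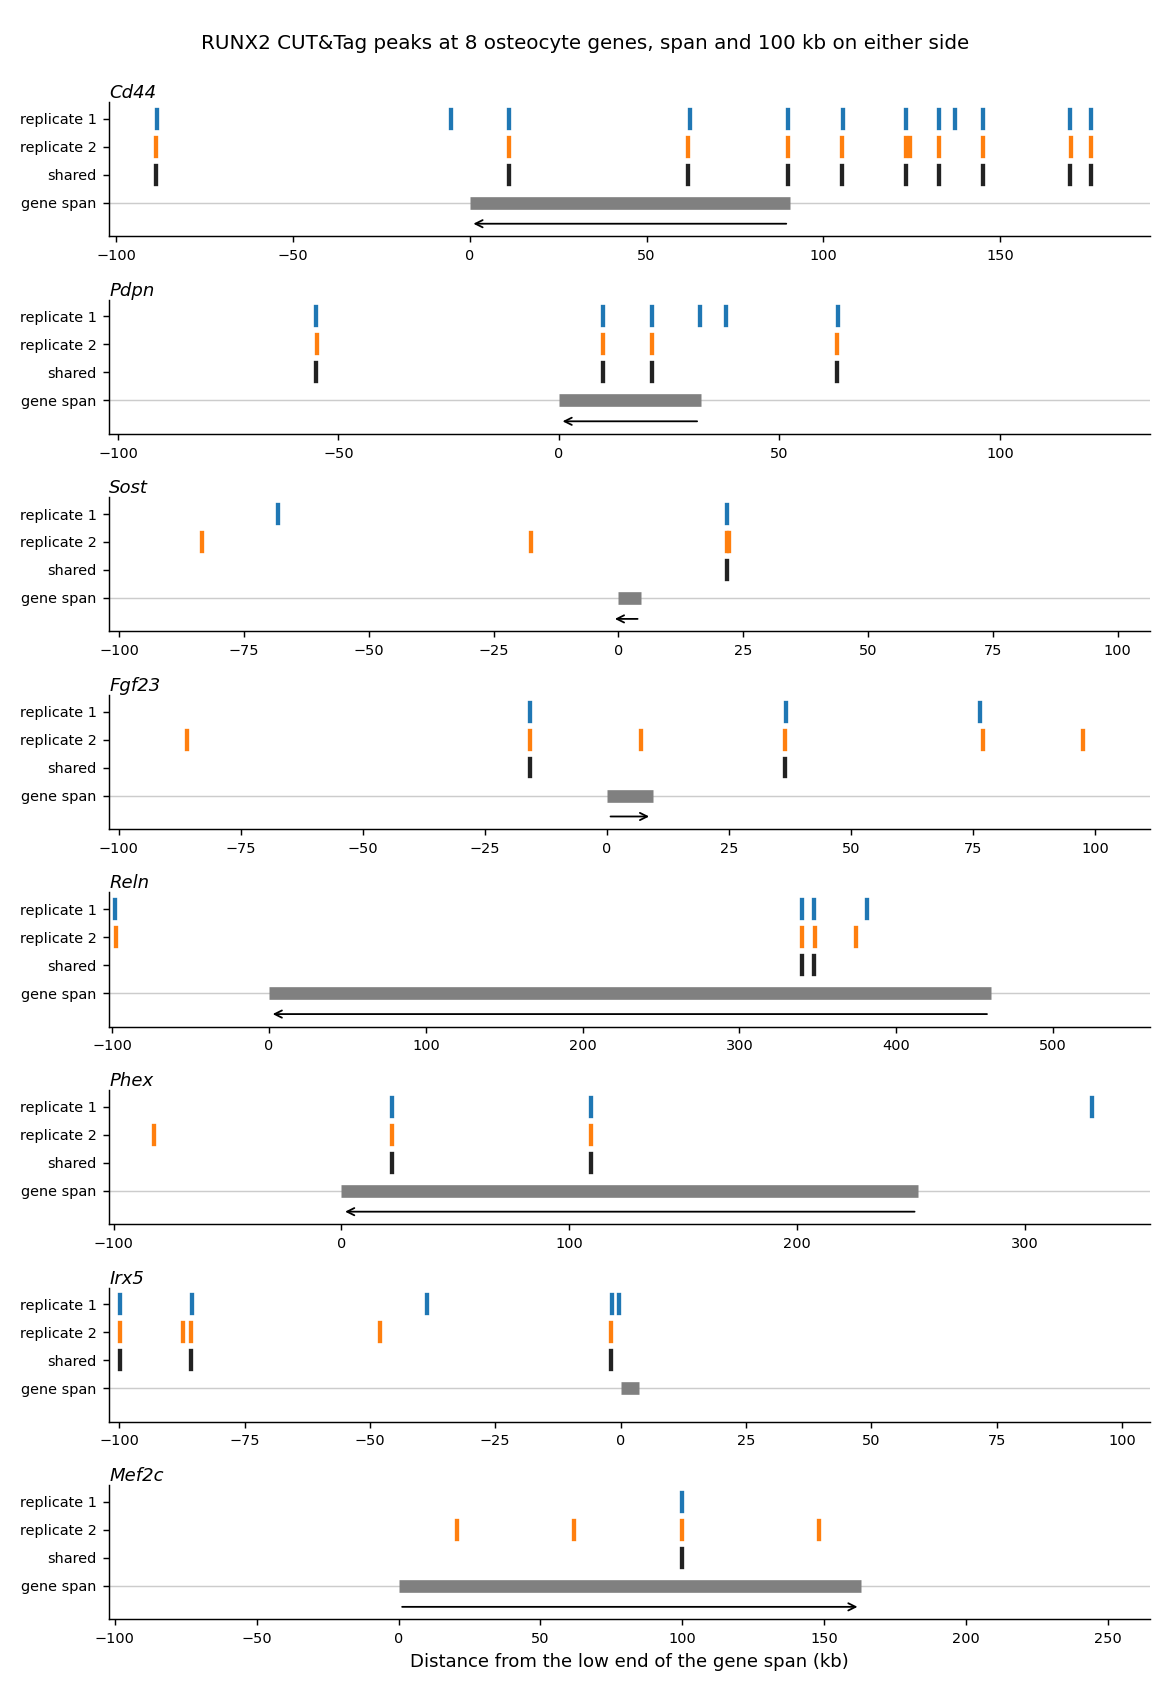
Positions of the peaks of replicate 1 (blue), of replicate 2 (orange) and of shared regions (black), each drawn at its low end, against distance from the low end of the gene span in kb, for 8 genes. Grey bars are the spans and arrows the direction of transcription where the promoter table gives a strand. Cd44 has 6 shared regions beyond its high end, the side of its start, and the regions of Phex, Reln and Mef2c lie inside the genes.

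Cd44, the cell surface receptor for hyaluronan that also binds osteopontin, carried the most peaks of the set. Its window on chromosome 2 (span 102811141 to 102901669, GRCm38) held 12 peaks in replicate 1 and 11 in replicate 2. Of its 10 shared regions, 3 overlapped the span, 6 lay beyond the high end and 1 beyond the low end. Cd44 is transcribed from the high end, so these 6 lay upstream of its start, and no protein-coding gene overlapped any of them. The next coding gene end on that side, that of Pdhx, was 33.6 kb from the outermost one.

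The promoter region of Cd44, from 102901161 to 102901774, measured 605 bp in replicate 1 and 607 bp in replicate 2. The widest upstream region, from 102943772 to 102945397 and 42.1 kb beyond the high end, measured 1616 bp in replicate 1 and 1618 bp in replicate 2. That is wider than 99.9% of replicate 1 peaks and 99.8% of replicate 2 peaks, and the 2 peaks overlapped over 1608 bp. It lay inside the noncoding gene Gm34483, as did the region 54.5 kb beyond the high end, with widths of 982 and 1087 bp.

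The region 79.3 kb away had widths of 1162 bp in replicate 1 and 948 bp in replicate 2, and that at 32.9 kb had 925 and 682 bp. These 4 upstream regions were above the 82nd width percentile in both lists. The upstream region at 14.9 kb was less alike, with 980 bp in replicate 1 and 421 bp in replicate 2, and that at 85.2 kb had 513 and 527 bp. Inside the gene, the region from 102872987 to 102874049 differed most between the lists, with a peak of 169 bp in replicate 1 and one of 1063 bp in replicate 2. The other internal region, 10.98 kb above the low end, was 454 bp in replicate 1 and 196 bp in replicate 2. The single region beyond the low end lay 88.2 kb away inside Slc1a2, a glutamate transporter gene, with widths of 309 and 488 bp.

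Pdpn encodes podoplanin, a mucin-type membrane glycoprotein of early osteocytes that is needed for their dendrites. Its window on chromosome 4 (span 143267409 to 143299564) held 6 peaks in replicate 1 and 4 in replicate 2, and all 4 peaks of replicate 2 were shared. The region from 143277338 to 143278853, inside the gene and 9.93 kb above its low end, measured 1514 bp in replicate 1 and 1422 bp in replicate 2, above the 99th width percentile in both. A second internal region, from 143288462 to 143289152, was 642 bp in replicate 1 and 649 bp in replicate 2. Its midpoint lay 10.8 kb downstream of the start of Pdpn. The third region, 30.8 kb beyond the high end and therefore upstream, measured 341 bp in replicate 1 and 510 bp in replicate 2, and was nearer to Lrrc38 (16.1 kb). The fourth lay 54.7 kb beyond the low end, 19 bp from the high end of Prdm2, a histone methyltransferase gene, and was 260 bp in replicate 1 and 286 bp in replicate 2. Both peaks found in replicate 1 alone lay near the start of Pdpn, one of 167 bp just inside the gene, 30 bp from its high end, and one of 490 bp that was 5.77 kb upstream of the span.

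**Figure D2:**
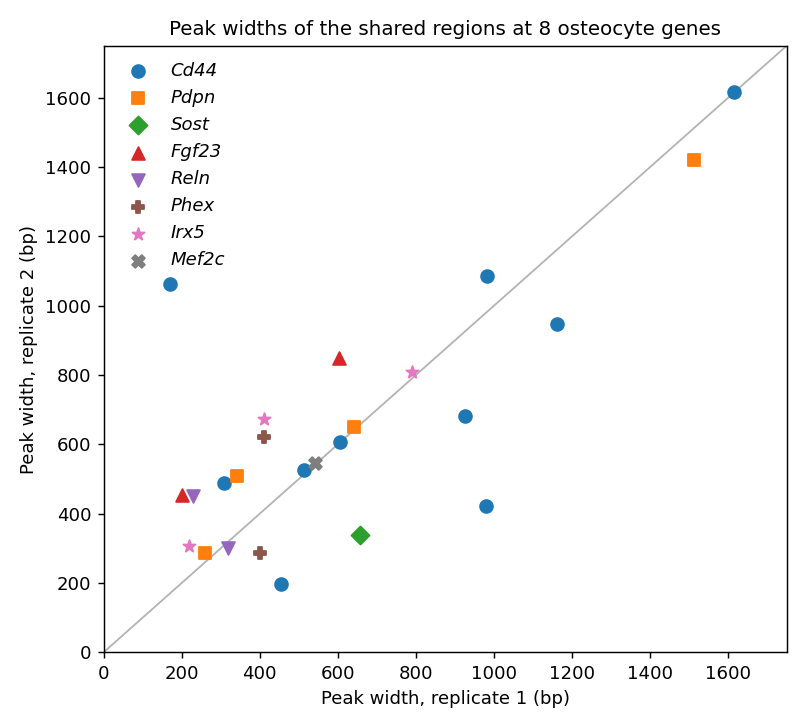
Width in replicate 2 against width in replicate 1, in bp, for the 25 shared regions at the 8 genes, with the widest peak taken where a list had several and the line of equal width drawn. Points at 1616 and 1618 bp (Cd44) and at 1514 and 1422 bp (Pdpn) are the widest, and the Cd44 point at 169 and 1063 bp lies farthest from the line.

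Among the secreted factors, Sost encodes sclerostin, which binds LRP5 and LRP6 and blocks Wnt signalling in osteoblasts. No peak of either replicate overlapped the gene (chromosome 11, 101962458 to 101967015). Its window held 2 peaks in replicate 1 and 4 in replicate 2. The 1 shared region, from 101984152 to 101984892, lay 17.1 kb beyond the high end and inside Dusp3, a phosphatase gene whose promoter window it partly covered, as shown above. It was made of 1 peak of 656 bp in replicate 1 and 2 peaks of 229 and 337 bp in replicate 2.

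In mouse and human, a distal enhancer between Sost and Meox1 governs Sost in bone, and the deletion of this stretch in people causes van Buchem disease. Between the 2 genes lay 1 peak of replicate 2 alone, 249 bp wide and 17.2 kb beyond the low end, which is the downstream side. A 216 bp peak of replicate 1 alone crossed the near end of Meox1, and a 187 bp peak of replicate 2 alone lay inside it. The stretch thus held no shared region.

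Fgf23, the gene of the hormone that makes the kidney excrete phosphate, had 3 peaks in replicate 1 and 6 in replicate 2 in its window on chromosome 6 (span 127072902 to 127082296). The shared region from 127057074 to 127057962 was 14.9 kb upstream of the gene, with no coding gene over it and with Fgf23 as the nearest coding gene end. It measured 604 bp in replicate 1 and 850 bp in replicate 2, above the 75th width percentile in both lists. The other shared region covered the high end of Tigar, which encodes a fructose bisphosphatase, 27.2 kb beyond Fgf23, and was 200 bp in replicate 1 and 453 bp in replicate 2. Inside Fgf23 a single peak of 332 bp was called, in replicate 2 alone.

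Reln, which encodes reelin, a large secreted glycoprotein best known for guiding neurons in the developing brain, is the longest gene of the set at 460252 bp. Its window on chromosome 5 (span 21884454 to 22344705) held 4 peaks in each replicate. The shared regions, from 22224292 to 22224807 and from 22232348 to 22232746, both lay inside the gene, with midpoints 120.2 and 112.2 kb downstream of its start. The first measured 228 bp in replicate 1 and 450 bp in replicate 2, and the second 318 and 301 bp. Each list had 1 further peak inside Reln at a different place, of 498 bp in replicate 1 and 402 bp in replicate 2.

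Phex encodes a membrane endopeptidase of osteoblasts and osteocytes whose loss raises FGF23 and causes X-linked hypophosphataemia. Its window on chromosome X (span 157162075 to 157415286) held 3 peaks in each replicate. Both shared regions lay inside the gene, with midpoints 230.7 and 143.7 kb downstream of the start. The first, from 157184282 to 157184901, was 410 bp in replicate 1 and 620 bp in replicate 2, and the second, from 157271420 to 157271837, was 400 and 287 bp, with the nearest coding gene end, that of Gm52451, 10.4 kb away. No peak lay over the Phex promoter window, and 1 peak of each list lay beyond the span, 76.2 kb above it in replicate 1 and 82.1 kb below it in replicate 2.

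Of the transcription factor genes, Irx5 encodes an Iroquois homeobox protein. Its window on chromosome 8 (span 92357796 to 92361456) held 5 peaks in each replicate, all at or beyond the low end, and 3 of them were shared. The nearest shared region, from 92355923 to 92356595, lay 1.20 kb from the low end and over the start of Crnde, a noncoding RNA gene beside Irx5, and was 412 bp in replicate 1 and 673 bp in replicate 2. A 342 bp peak of replicate 1 alone crossed the low end of Irx5 itself. The other shared regions were 85.3 kb away, with widths of 218 and 306 bp, and 99.0 kb away, with 791 and 810 bp. The last was the one nearest to the 100 kb limit from within, and the nearest shared region left out by the limit was 104.9 kb below Pdpn.

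Mef2c encodes a MADS-box factor that acts on the distal Sost enhancer in mouse bone. Its window on chromosome 13 (span 83504017 to 83667079) held 1 peak in replicate 1 and 4 in replicate 2. The 1 shared region, from 83603897 to 83604555, lay inside the gene and 30.6 kb downstream of the nearest of 3 RefSeq starts, and was 542 bp in replicate 1 and 545 bp in replicate 2. It also overlapped the noncoding gene Gm52043. The 3 other peaks of replicate 2 lay inside Mef2c and were 171, 384 and 209 bp wide. Beyond the window the nearest shared regions were 1720.0 kb below and 554.8 kb above the gene. The stretch below was the widest on that side of any gene of the set, but the one above Phex was wider, at 1956.4 kb.

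**Figure D3:**
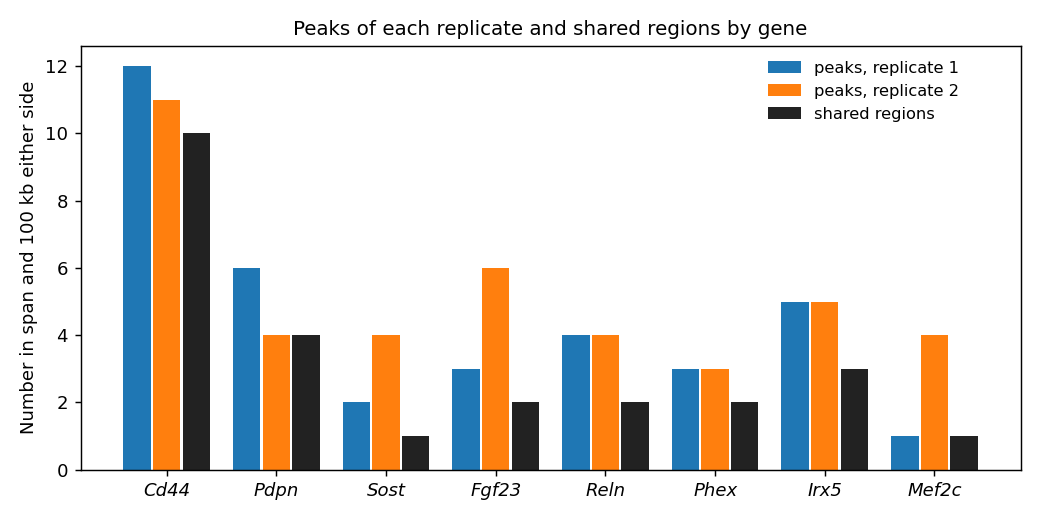
Number of peaks in replicate 1, of peaks in replicate 2 and of shared regions in the span and 100 kb on either side of each of the 8 genes. Cd44 has 12, 11 and 10, while Mef2c has 1, 4 and 1.

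Because long genes have longer windows, peaks were also counted per 100 kb of window, which puts the genes in a different order. Cd44 came first with 4.13 peaks per 100 kb in replicate 1 and 3.79 in replicate 2 (3.96 ± 0.24, SD, n = 2). No other gene of the set reached these values in either replicate. Irx5 had 2.46 in both, Pdpn 2.58 and 1.72, Fgf23 1.43 and 2.87, and Sost 0.98 and 1.96, and each of these overlapped the next in this order within the spread of the replicates. Mef2c had 0.28 in replicate 1 and 1.10 in replicate 2, a range that took in Phex at 0.66 and Reln at 0.61 in both and overlapped that of Sost.

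For shared regions per 100 kb, Cd44 stood at 3.44, higher than 92.0% of the 21887 protein-coding genes. Pdpn stood at 1.72 (higher than 64.7%), Irx5 at 1.47 (60.4%) and Fgf23 at 0.96 (44.8%). Sost at 0.49, Phex at 0.44, Reln at 0.30 and Mef2c at 0.28 were higher than 23.2% to 32.3% of genes, not far above the 22.3% of genes without a shared region in their window. The median over the 8 genes was 0.72 shared regions per 100 kb, against 1.14 over all protein-coding genes. Neighbouring genes share windows, so these percentages describe positions and are not a test.

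**Figure D4:**
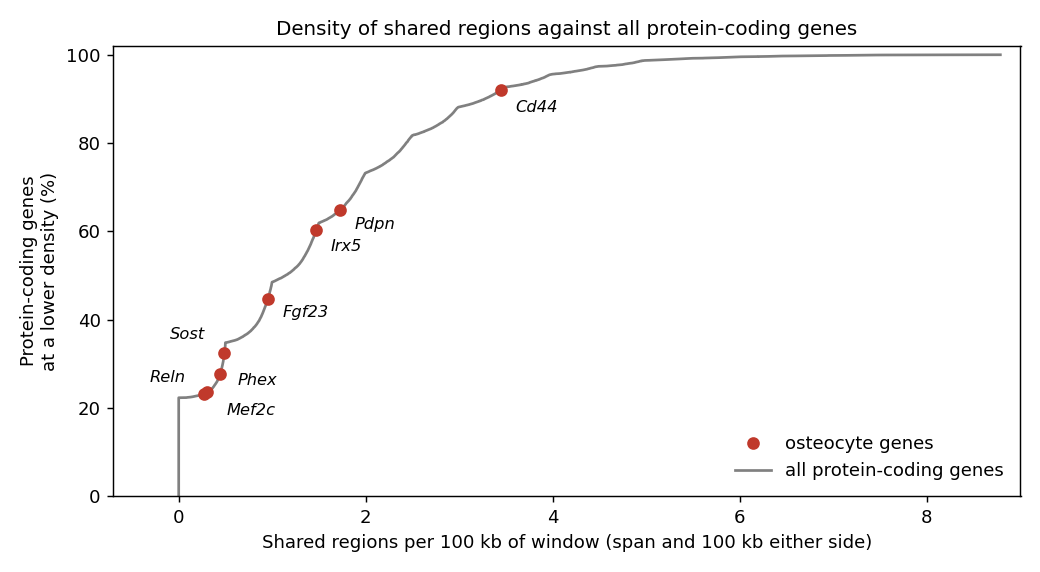
Share of all 21887 protein-coding genes at a lower density, in percent, against shared regions per 100 kb of window, with the 8 genes as red points on the distribution of all genes (grey line). Cd44 lies at 3.44 and the 92.0% level, and Sost, Phex, Reln and Mef2c lie at 0.49 or less.

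The shared regions at these genes were mostly away from the ends of coding gene spans. Of the 25, 3 (12%, 95% Wilson interval 4.17 to 30.0) lay within 1 kb of a protein-coding gene end, those at Cd44, Tigar and Prdm2. Starts inside a span and noncoding genes were not counted as ends. The region over a Dusp3 promoter window, 2.12 kb from the end of the Dusp3 span, was therefore left out. So was the region over the start of Crnde, 1.20 kb from Irx5. Over all 18128 shared regions of the assembled chromosomes it was 34.7% (34.0 to 35.4). The choice of windows around 8 genes bears on the share at these genes, and 10 of the 25 came from Cd44. The interval treats the 25 regions as independent, which they are not, and the difference between the shares was not tested. Of the peaks in the windows, 25 of 36 in replicate 1 (69.4%, 53.1 to 82.0) and 26 of 41 in replicate 2 (63.4%, 48.1 to 76.4) were shared. Elsewhere it was 68.2% (67.7 to 68.8) in replicate 1 and 67.2% (66.6 to 67.7) in replicate 2, within the intervals for the 8 genes. Shared peaks in the windows had a median width of 513 bp in replicate 1 and 536 bp in replicate 2, and those found in 1 replicate had 217 and 249 bp. Over the whole lists the medians were 488 and 493 bp for shared peaks and 260.5 and 256 bp for the others.

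Genes that work with the 8 were counted in the same way, as 7 lists with 31 genes. A shared region lay inside or within 100 kb of 24 of the 31, within 10 kb of 19 and inside 14, against 77.7%, 52.8% and 41.4% of all protein-coding genes. Of the sclerostin receptors and Wnt antagonists, 3 of 5 had one within 100 kb, led by the coreceptor gene Lrp6 with 8, and the antagonist genes Dkk1 and Sostdc1 had 0. Of the phosphate genes, 4 of 5 had one, led by the FGF23 receptor gene Fgfr1 with 6. Of the reelin receptor and adaptor genes, 2 of 3 had one, led by Lrp8 with 5, and Dab1 had 0. All 3 genes of the ERM proteins, which tie podoplanin and CD44 to actin, had one, led by Ezr, the ezrin gene, with 8.

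Of the other Iroquois genes, 3 of 5 had a shared region within 100 kb, with 2 at Irx1. Of those on the same chromosome as Irx5, Irx3 had 1, inside the gene and over its promoter window, and Irx6 had 0. Mef2c had 1, against 5 at each of the other MEF2 genes, Mef2a, Mef2b and Mef2d. Of 7 other osteocyte genes, 6 had one, led by Capg, an actin-capping protein gene, with 11. Dmp1 and Mepe, of the SIBLING cluster, had 5 and 9, and Ptprz1 had 0. The windows of Dmp1 and Mepe overlap, so the same shared region may count at both.

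Among protein-coding genes on other chromosomes, those whose peaks were laid out most like those of Cd44 were Pi4kb, Slc25a44 and Rps6kb1. Likeness was the sum of absolute differences over 9 counts from the 2 libraries. These were for shared regions and for peaks of either replicate alone, inside the gene and beyond each end. The ends were the low and high ends, without regard to strand. The sum was 2 for Pi4kb, a phosphatidylinositol kinase gene with 8 shared regions, 2 for Slc25a44, a mitochondrial carrier gene with 9, and 3 for the S6 kinase gene Rps6kb1, with 9.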

How the data were processed

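Per the labels, RUNX2 CUT&Tag was run on untreated MC3T3-E1 cells in 2 replicates. Per the submitters' processing notes the tools were fastp 0.19.6, Bowtie2 and deepTools and the build GRCm38 (mm10). Neither the peak caller nor its threshold or any control is named there or in the labels. The deposited lists, 1 per replicate and not pooled, give chromosome, start, end and width of each peak in 5 columns with a running number. Width equals end minus start plus 1, so positions count from 1. Read depth is unknown, and Wilson intervals cover counting error only.

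Overlaps were computed in Python 3.11.15 and the totals of overlapping peaks matched bedtools 2.31.1 exactly. The counting was tested on simulated data. Gene spans are RefSeq GRCm38.p6, and sequences and strands come from its promoter windows. With 1 group there is no contrast, and no test was run. The 8 genes, the 7 lists and all rules were chosen with earlier results of these data known. Named are the 8 genes, the genes nearest to or holding their shared regions, and for each list the gene with the most shared regions. The rule also names the 3 genes on other chromosomes most like Cd44. Of the neighbours, Meox1, Psmc2, Ccnd2, Gm34483, Gm52043 and Crnde fall outside that rule, as do the list genes given with 0 regions, Irx3, Mef2a, Mef2b, Mef2d, Dmp1 and Mepe, and were chosen after their values were seen. Alternatives were other overlaps, widths, distances and positions and each replicate alone.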

Additional observations from a re-analysis of the deposited data

How the results depend on the processing

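Both counts of genes, 8 with a shared region within 100 kb and 6 within 10 kb, kept within 1.5 times under every alternative tried, at 6 to 8 and 5 to 7. Part of this was fixed in advance, because neither count can exceed 8. Leaving out a replicate or widening the limit could not lower the counts either. With a reciprocal overlap of at least 50% the shared part of the peaks at the 8 genes was 44.2%, against 66.2% with 1 bp, and Sost had 0 shared regions. The share over the whole lists under that rule is not given here, so the fall cannot be read as particular to these genes. Counts over all protein-coding genes under the alternatives are not given either. The 25 shared regions became 14 with only peaks above the median width of each list, when Sost and Reln had 0, and 11 with a limit of 10 kb, when Sost and Fgf23 had 0. With a limit of 200 kb, chosen after the data were seen, there were 39. Leaving out each replicate gave 36 to 41 peaks at the 8 genes, 8 genes within 100 kb in both cases, and 6 to 7 within 10 kb, the seventh being Fgf23 through its internal peak of replicate 2. Cd44 had 6 to 12 regions or peaks within 50 kb or more under every alternative, and 3 at 10 kb. Of 64 values for single genes under the alternatives, 36 stayed within 1.5 times the value reported and 28 did not. No paired analysis was possible because there is 1 group. A gene without a peak may carry signal below the calling limit, which the lists cannot show.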

Other observations

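At 2 places in the windows, peaks of the replicates lay within 1 kb of each other without overlapping, and so were not counted as shared. Beyond the low end of Reln, a 172 bp peak of replicate 1 and a 277 bp peak of replicate 2 lay 45 bp apart, both over promoter windows of the proteasome gene Psmc2. Beyond Fgf23, inside the cyclin gene Ccnd2, a 236 bp peak of replicate 1 and a 192 bp peak of replicate 2 lay 413 bp apart. Among promoter windows of protein-coding genes under a shared region, 784 of 6573 (11.9%) held TGTGGT, the only RUNX form searched, as did 3179 of all 21238 windows (15.0%). That difference was not tested, and base composition was not compared.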
